A study of Mus musculus with 35 samples.

Results

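Transcripts of 32 genes of sterol and fatty acid metabolism were followed in microglia sorted from the midbrain, the striatum and the prefrontal cortex (PFC) of male and female mice. The set was given as a list of gene symbols, and all 32 were found among the 21236 genes of the counts table. It holds 18 enzymes of cholesterol synthesis, 5 genes that control the SREBP transcription factors, 3 genes of lipogenesis and 6 genes of LXR signalling, sterol efflux and esterification.

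Every mouse was heterozygous for Tmem119-2A-CreERT2 and Ai14(RCL-tdTomato)-D, was 17 to 18 weeks old and had received tamoxifen (75 mg/kg daily for 5 days), 10 to 21 days before it was killed. Microglia were collected as tdTomato-positive cells, a label that needs Cre driven by the microglial gene Tmem119. There were 6 samples for each region and sex, except for 5 from the male PFC, so that 12 samples came from the midbrain, 12 from the striatum and 11 from the PFC. Each sample was the pooled RNA of the sorted cells of 1 region of 1 of 12 mice, and fewer cells of a type and less RNA per cell cannot be told apart. No group went without tamoxifen, a drug known to bind the sterol isomerase Ebp, and its part in the levels below was not tested.

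Total counts ran from 37680501 to 54131421 per sample. A list of 14 microglial transcripts, which holds Tmem119, P2ry12 and Csf1r, summed to 48074 to 59916 CPM (counts scaled to library size with TMM factors) over the 35 samples, all of its members were detected, and the lists for other cells were far lower. The microglial sum had means of 50752 CPM in the midbrain, 55505 in the striatum and 54325 in the PFC. In the midbrain, the striatum and the PFC, the means of the oligodendrocyte sum (12 transcripts) were 406, 492 and 341 CPM. The astrocyte sum (10 transcripts) had means of 240.3, 357 and 349 CPM, and the neuron sum (14 of 16 transcripts in the table) had means of 9.16, 16.5 and 24.9 CPM. The astrocyte sum lay between 210 and 266 CPM in the midbrain samples and between 261 and 501 CPM in all others. Its largest member was Slc1a3 (mean 209 CPM), and the list did not move as one. The log2 fold changes for PFC minus midbrain and striatum minus midbrain were 0.463 and 0.384 for Slc1a3. They were -0.66 and -0.35 for Gfap (mean 1.83 CPM). For border macrophages (5 of 6 transcripts in the table) the means were 6.85, 5.82 and 7.05 CPM, and for 7 transcripts of ex vivo activation they were 29772, 27381 and 27645 CPM. For endothelial cells (9 transcripts) the means were 30.0, 42.1 and 33.6 CPM. The part of these lists in the differences below was not tested beyond fits with an index as a covariate, whose values stand beside the results that they changed. The index was of oligodendrocyte, astrocyte, neuron and endothelial markers or, in a separate fit, of ex vivo activation. Border macrophage transcripts were in neither index.

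Cells make cholesterol from acetyl-CoA through the mevalonate pathway, squalene and lanosterol. When membrane sterol is low, Scap carries the transcription factor SREBP-2 (from Srebf2) from the endoplasmic reticulum to be cut, and the released factor turns on the genes of synthesis. Insig1 and Insig2 hold Scap back when sterol is high. The liver X receptors (LXR, from Nr1h2 and Nr1h3) are activated by oxysterols and turn on export through Abca1 and Abcg1. Microglia in particular take up cholesterol with myelin and debris, which they must export or store as ester.

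Reads could not always be assigned to 1 gene, and how the counting treated such reads is not given in the sources used here. Of the 50-base stretches in the annotated transcripts of Acat2, 39.1% also occurred in transcripts of Acat3. The share was 30.4% for Acaca, 26.5% for Fdft1, which overlaps Ctsb on the other strand, 26.2% for Fdps and 25.3% for Idi1, so the levels of these genes are uncertain. Among the members called below, it was 11.6% for Hmgcs1, 3.97% for Scd2 (most of it with Scd1), 2.77% for Cyp51 (with Akap9), 2.17% for Insig1, 0.396% for Srebf2, 0.177% for Abcg1 and 0 for Abca1 and Fasn. Tm7sf2 with Vps51 (9.87%) and Scap with an antisense transcript (9.96%) also shared sequence.

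The members spanned a wide range of levels. Scaled to the length of their exons, the highest mean was 68.7 CPM per kb for Mylip, a ubiquitin ligase that LXR turns on. It was followed by 37.97 CPM per kb for Ebp, a sterol isomerase, 28.5 for Abcg1, 18.7 for Nr1h2 and 17.4 for Insig2. At the low end were Acaca at 0.116 CPM per kb, Fdps at 0.302 and Nr1h3 at 0.312. Of the 2 LXR genes, Nr1h2 had a mean of 62.6 CPM and Nr1h3 one of 0.785 CPM, against a floor of 3 counts that stands at 0.0561 to 0.0789 CPM.

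**Figure D1:**
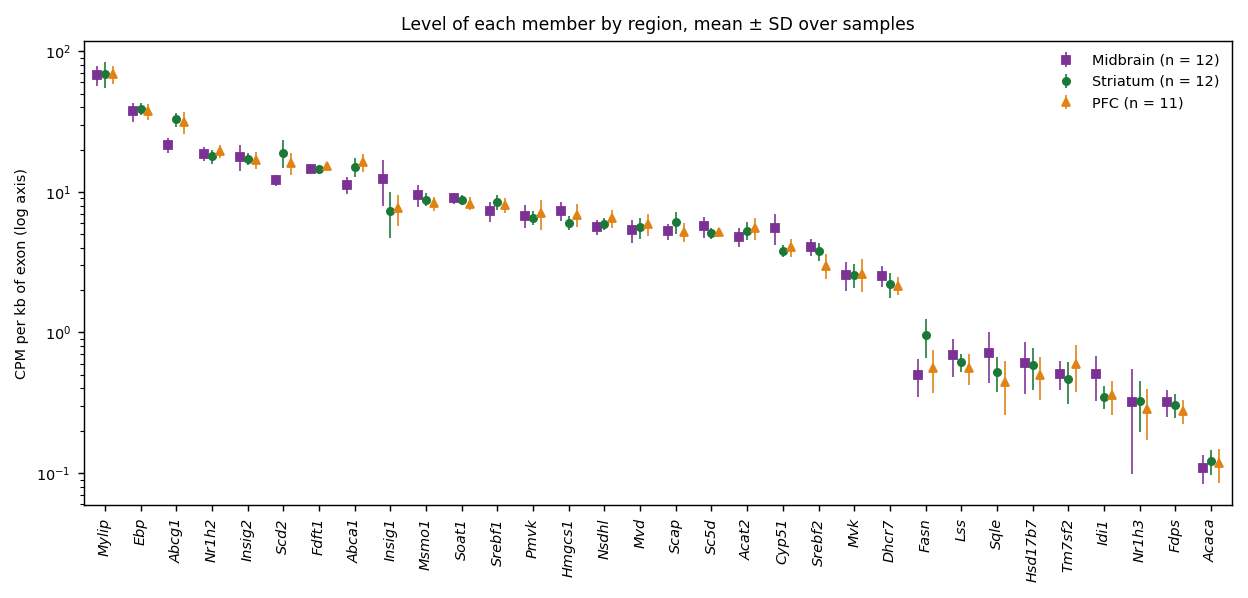
CPM per kb of exon (log axis) for the 32 members, ordered by their mean over all samples, with the mean ± SD in the midbrain (12 samples), the striatum (12) and the PFC (11). Levels run from 68.7 CPM per kb for Mylip to 0.116 for Acaca, and within most genes the regions lie close together.

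Across the regions, 7 of the 32 members (21.9%) differed at a Benjamini-Hochberg adjusted p under 0.05 in edgeR's quasi-likelihood test, where 8.89% of all genes did. The members were chosen with earlier results of these data known, so their shares here are a description. Scd2, Fasn, Abca1 and Abcg1 were lowest on average in the midbrain, and Cyp51, Insig1 and Srebf2 highest there. Between PFC and midbrain, 6 members were called (18.8%, against 6.52% of all genes). Of these, 3 were higher in the PFC, as were 2.88% of all genes, and 3 were lower, as were 3.64%. Between striatum and midbrain, 7 members were called, 4 higher and 3 lower in the striatum (7.45% of all genes, with 4.18% higher and 3.27% lower). The median log2 fold change over the members was near that of all genes in both pairs, at -0.0021 against 0.011 for PFC minus midbrain and at -0.034 against 0.012 for striatum minus midbrain. Among genes of at least 1 mean CPM, 11.6% were called across regions, 7.94% between PFC and midbrain and 10.3% between striatum and midbrain. Both pairs share the midbrain samples. The 2 comparisons called 8 members in all, of which Hmgcs1, Cyp51, Srebf2 and Insig1 were higher in the midbrain and Fasn, Scd2, Abca1 and Abcg1 lower there. With the mouse as a block, Srebf1 and Scap, which are also genes of SREBP control, were called too, lower in the midbrain than in the striatum.

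**Figure D2:**
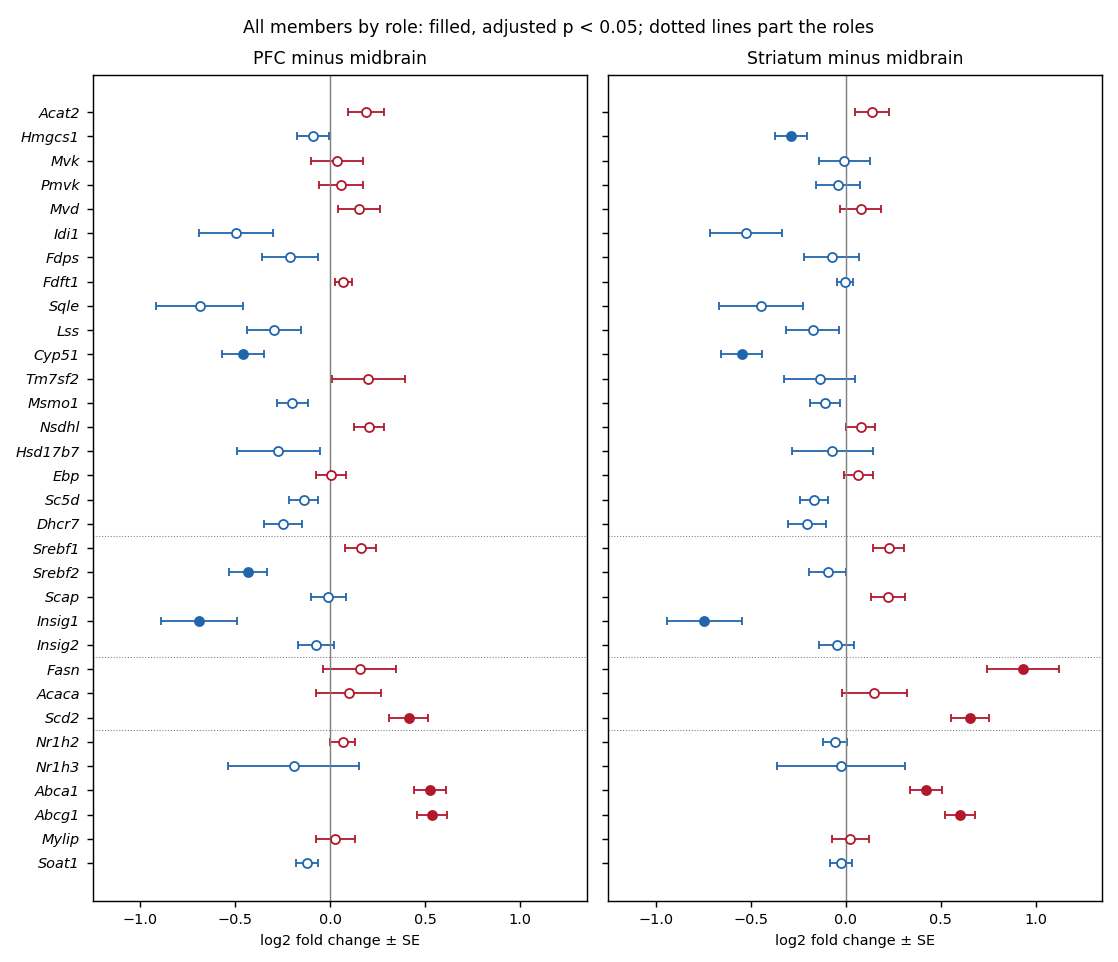
log2 fold change ± SE of all 32 members for PFC minus midbrain (left) and striatum minus midbrain (right), grouped by role from synthesis (top) through SREBP control and lipogenesis to LXR and efflux (bottom). Filled points passed an adjusted p of 0.05, which held for 6 members on the left and 7 on the right, and red points are above 0 and blue points below.

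The promoters of the called members are shown because the factors that read sterol levels are known to act there. RefSeq (GRCm38.p6) had an entry for 27 of the 32 members and for 6 of the 8 called ones, Scd2 and Abcg1 not among them. The 250 bases before the annotated start were searched on both strands for the letters TCACCNCA, which the sterol response elements bound by SREBP contain, and for GGTNA followed, after any 5 bases, by GGTNA again, the spaced repeat (DR4) that LXR binds. Stricter forms of both were tried first, and both sets of letters were settled after member promoters had been read, so the counts of members are a description. The first occurred in 3.61% of 32851 promoters and in 4 members, Hmgcs1, Cyp51, Srebf2 and Hsd17b7. The second occurred in 0.621% of promoters and in 3 members, Abca1, Fasn and Srebf1. CCAAT, the box of the factor NF-Y, occurred in 33.8% of all promoters and in 21 members. The windows lie at chr13:119690101-119690350 (+ strand) for Hmgcs1, chr5:4104698-4104947 (- strand) for Cyp51, chr15:82147019-82147268 (+ strand) for Srebf2, chr11:120824548-120824797 (- strand) for Fasn and chr4:53159896-53160145 (- strand) for Abca1. They are printed 5′ to 3′ on the strand of the gene, and capitals mark the match. A match describes the letters of the window and does not show that a factor was bound.
Hmgcs1: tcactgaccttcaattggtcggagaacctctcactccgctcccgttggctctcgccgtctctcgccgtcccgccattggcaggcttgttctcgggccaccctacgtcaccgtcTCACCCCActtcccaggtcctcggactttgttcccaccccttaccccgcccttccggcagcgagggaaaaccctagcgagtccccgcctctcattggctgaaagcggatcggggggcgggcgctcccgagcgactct
Cyp51: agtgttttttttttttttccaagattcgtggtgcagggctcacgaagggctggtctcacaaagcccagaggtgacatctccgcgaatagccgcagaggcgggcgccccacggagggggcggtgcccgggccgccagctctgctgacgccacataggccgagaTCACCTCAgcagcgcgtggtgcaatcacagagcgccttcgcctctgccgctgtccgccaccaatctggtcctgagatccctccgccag
Srebf2: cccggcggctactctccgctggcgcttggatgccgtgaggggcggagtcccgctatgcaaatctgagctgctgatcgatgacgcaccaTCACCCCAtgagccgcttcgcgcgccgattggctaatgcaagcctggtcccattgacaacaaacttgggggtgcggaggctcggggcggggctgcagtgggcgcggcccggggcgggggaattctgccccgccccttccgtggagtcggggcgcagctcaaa
Fasn: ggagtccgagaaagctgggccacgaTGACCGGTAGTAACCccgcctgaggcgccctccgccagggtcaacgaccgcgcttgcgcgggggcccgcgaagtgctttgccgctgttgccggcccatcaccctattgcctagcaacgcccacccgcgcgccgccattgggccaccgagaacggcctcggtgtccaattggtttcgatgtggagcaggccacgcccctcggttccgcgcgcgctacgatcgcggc
Abca1: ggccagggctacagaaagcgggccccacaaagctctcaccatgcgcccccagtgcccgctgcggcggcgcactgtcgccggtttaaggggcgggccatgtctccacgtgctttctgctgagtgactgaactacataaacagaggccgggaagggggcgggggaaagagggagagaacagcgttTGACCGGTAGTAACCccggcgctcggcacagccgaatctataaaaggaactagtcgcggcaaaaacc

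The match began 137 bases before the start in Hmgcs1, 88 in Cyp51, 162 in Srebf2, 225 in Fasn and 67 in Abca1. In the window of Insig1 neither set of letters was found.

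The efflux transporters were lower in the midbrain than in either other region. Abcg1 (ENSMUSG00000024030, chr17:31057675-31117988, + strand, GRCm38) passes cholesterol to lipoprotein particles. It ran from 130.2 to 192 CPM in the midbrain (median 153.0, mean 158 ± 19.2, SD, n = 12). In the striatum it ran from 207 to 294 CPM (median 239, mean 239 ± 27.4, SD, n = 12), and in the PFC from 165 to 297 CPM (median 214, mean 228 ± 41.3, SD, n = 11). All 12 striatum samples lay above the highest midbrain sample, and 9 of the 11 PFC samples did. Abcg1 rose by a log2 fold change of 0.54 ± 0.080 (SE) from midbrain to PFC (adjusted p = 1.24e-05, edgeR) and by 0.60 ± 0.079 from midbrain to striatum (adjusted p = 3.46e-06). Within mice it was higher in the PFC in 11 of 11 and in the striatum in 12 of 12.

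Abca1 (ENSMUSG00000015243, chr4:53030787-53159895, - strand) loads cholesterol and phospholipid onto lipid-poor apolipoproteins. It ran from 96.5 to 149 CPM in the midbrain (median 114, mean 117 ± 15.99, SD, n = 12). The striatum held 121 to 196 CPM (median 154, mean 157 ± 23.7, SD, n = 12) and the PFC 131 to 198 CPM (median 172, mean 168 ± 23.5, SD, n = 11). The ranges overlapped, although 9 of 11 PFC samples and 7 of 12 striatum samples lay above every midbrain sample. The log2 fold change from midbrain was 0.52 ± 0.084 (SE) for the PFC (adjusted p = 4.03e-05, edgeR) and 0.42 ± 0.083 for the striatum (adjusted p = 9.9e-04). Abca1 was higher than in the midbrain in 10 of 11 mice for the PFC and in 12 of 12 for the striatum.

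The remaining genes of this group gave no call. Nr1h3, which encodes LXR alpha, had lowest, median and highest values of 0.11, 0.727 and 1.94 CPM in the midbrain (mean 0.811 ± 0.565, SD, n = 12). They were 0.233, 0.828 and 1.38 CPM in the striatum (mean 0.818 ± 0.323) and 0.313, 0.682 and 1.19 CPM in the PFC (mean 0.72 ± 0.284, n = 11). These values were low and spread too widely to show a small difference. The log2 fold changes of Nr1h3 against the midbrain were -0.19 ± 0.35 (SE) for the PFC and -0.03 ± 0.34 for the striatum. Soat1 makes cholesteryl ester, the stored form. It ran from 76.5 to 105 CPM in the midbrain (median 85.2, mean 88.0 ± 8.11, n = 12), from 79.1 to 97.7 in the striatum (median 84.4, mean 86.4 ± 6.19, n = 12) and from 72.5 to 96.6 in the PFC (median 79.1, mean 80.9 ± 8.64, n = 11). Its log2 fold change for PFC minus midbrain was -0.12 ± 0.057 (unadjusted p = 0.0403, adjusted p = 0.259, edgeR), with a lower PFC value in all but 1 of 11 mice. Nr1h2, which encodes LXR beta, had log2 fold changes of 0.07 ± 0.066 and -0.06 ± 0.064 against the midbrain, and Mylip had 0.03 ± 0.10 and 0.02 ± 0.099.

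Of the 3 genes of lipogenesis, 1 was called between PFC and midbrain and 2 between striatum and midbrain, all lower in the midbrain. Of all genes, 6.52% and 7.45% were called in these pairs in either direction. Scd2 (ENSMUSG00000025203, chr19:44293674-44306864, + strand) encodes a desaturase that makes monounsaturated fatty acids. Its levels in the midbrain kept within 56.6 to 74.7 CPM (median 67.7, mean 65.9 ± 5.65, SD, n = 12). They spread more widely in the striatum, from 69.6 to 144 CPM (median 104, mean 104 ± 23.2, SD, n = 12), and in the PFC, from 65.3 to 116 CPM (median 88.8, mean 87.7 ± 15.8, SD, n = 11). Of the striatum samples 11 of 12, and of the PFC samples 8 of 11, lay above every midbrain sample. Scd2 rose by 0.41 ± 0.10 (log2, SE) from midbrain to PFC (adjusted p = 0.00741, edgeR) and by 0.65 ± 0.10 to striatum (adjusted p = 3.14e-05), with a higher striatum value in 12 of 12 mice.

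Fasn (ENSMUSG00000025153, chr11:120805846-120824547, - strand), the fatty acid synthase, differed in the striatum. It ran from 2.53 to 9.09 CPM in the midbrain (median 5.33, mean 5.48 ± 1.65, SD, n = 12), from 4.97 to 15.0 CPM in the striatum (median 10.9, mean 10.4 ± 3.25, SD, n = 12) and from 3.01 to 8.90 CPM in the PFC (median 5.74, mean 6.10 ± 2.06, SD, n = 11). The striatum overlapped both other regions, with 8 of its 12 samples above every midbrain sample. Fasn rose by 0.93 ± 0.19 (log2, SE) from midbrain to striatum (adjusted p = 0.00142, edgeR), and the striatum was higher in 12 of 12 mice. Between PFC and midbrain its log2 fold change was 0.16 ± 0.19 (adjusted p = 0.791).

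Fasn and Scd2 are also strongly used by oligodendrocytes and astrocytes. With an index of oligodendrocyte, astrocyte, neuron and endothelial markers as a covariate, the striatum minus midbrain difference was 0.40 for Fasn (adjusted p = 0.173, edgeR) and 0.38 for Scd2 (adjusted p = 0.00509). For Abcg1 it was then 0.51, and for Abca1 0.43. Acaca, the acetyl-CoA carboxylase that supplies Fasn, averaged 1.98 CPM and had log2 fold changes of 0.10 ± 0.17 and 0.15 ± 0.17 against the midbrain.

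**Figure D3:**
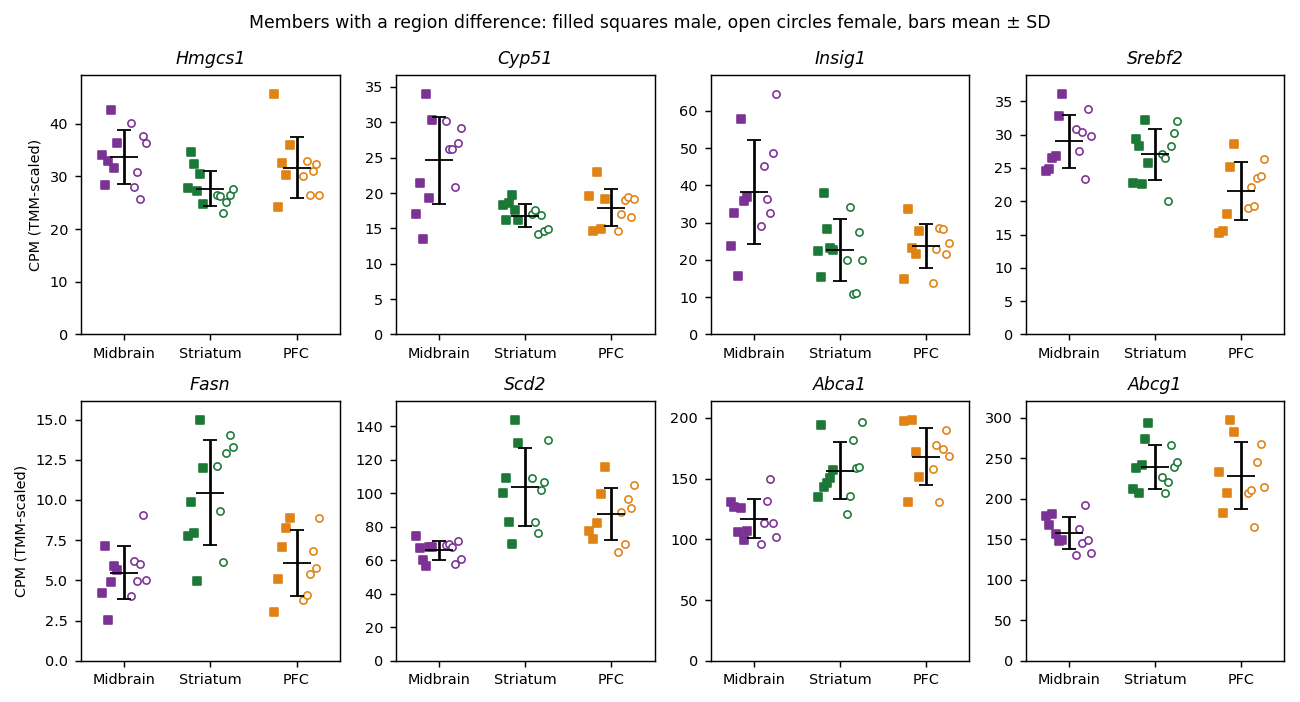
CPM of the 8 members called in a comparison of regions, for every sample (filled squares male, open circles female), with the mean ± SD of each region. The 4 genes of the upper row have their highest mean in the midbrain and the 4 of the lower row their lowest, and of the pairs with the midbrain only striatum against midbrain for Abcg1 separates without overlap.

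Of the 5 genes of SREBP control, 2 were called between PFC and midbrain and 1 between striatum and midbrain, all lower than in the midbrain. The shares of all genes called in either direction were 6.52% and 7.45%. Insig1 (ENSMUSG00000045294, chr5:28071363-28078662, + strand), which holds the SREBP complex back and is itself a target of SREBP, was called in both pairs. It ran from 15.6 to 64.6 CPM in the midbrain (median 36.2, mean 38.2 ± 13.9, SD, n = 12), from 10.8 to 37.9 CPM in the striatum (median 22.4, mean 22.8 ± 8.33, SD, n = 12) and from 13.7 to 33.8 CPM in the PFC (median 23.3, mean 23.7 ± 5.91, SD, n = 11). The 3 regions overlapped over much of their range. Insig1 fell by 0.69 ± 0.20 (log2, SE) from midbrain to PFC (adjusted p = 0.0295, edgeR) and by 0.75 ± 0.20 to striatum (adjusted p = 0.0150), and in each pair 1 mouse, mouse 5, went the other way. The PFC call was lost when any of mice 2, 4, 7, 9, 10 or 12 was left out, with log2 fold changes of -0.84 to -0.61 over all such fits. The striatum call was lost without mouse 12.

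Srebf2 (ENSMUSG00000022463, chr15:82147181-82205379, + strand), which encodes SREBP-2 and carries the microRNA gene Mir33 in an intron, was low in the PFC. It ran from 23.3 to 36.1 CPM in the midbrain (median 28.7, mean 28.98 ± 4.02, SD, n = 12) and from 19.97 to 32.2 CPM in the striatum (median 27.7, mean 27.1 ± 3.82, SD, n = 12), but from 15.3 to 28.6 CPM in the PFC (median 22.1, mean 21.5 ± 4.38, SD, n = 11). Of the 11 PFC samples, 6 lay below every midbrain sample. Srebf2 fell by 0.43 ± 0.099 (log2, SE) from midbrain to PFC (adjusted p = 0.00367, edgeR), with a lower PFC value in all but 1 of 11 mice. The striatum minus midbrain difference was -0.10 ± 0.096 (adjusted p = 0.643).

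Srebf1, which encodes the SREBP-1 forms that drive lipogenesis, did not pass the test. It ran from 29.9 to 53.0 CPM in the midbrain (median 40.9, mean 40.9 ± 6.55, n = 12), from 36.5 to 57.2 in the striatum (median 47.8, mean 47.8 ± 5.81, n = 12) and from 37.99 to 54.5 in the PFC (median 45.0, mean 45.7 ± 5.58, n = 11). The striatum minus midbrain difference was 0.23 ± 0.080 (adjusted p = 0.0819, edgeR), and it passed with the mouse as a block (adjusted p = 0.0204). It also passed with the term for mice 1 to 6 against mice 7 to 12 (adjusted p = 0.032, edgeR). Scap had a difference of 0.22 ± 0.090 in that pair (adjusted p = 0.131), which also passed with the mouse as a block (adjusted p = 0.0247). Insig2, the other Insig gene, ran from 42.8 to 83.5 CPM in the midbrain (median 59.3, mean 62.0 ± 12.8, n = 12). It ran from 50.4 to 70.0 in the striatum (median 59.2, mean 59.9 ± 6.19, n = 12) and from 44.4 to 71.5 in the PFC (median 61.3, mean 59.0 ± 8.17, n = 11). Its log2 fold changes against the midbrain were -0.07 ± 0.094 for the PFC and -0.05 ± 0.091 for the striatum.

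Of the 18 synthesis enzymes, 1 was called between PFC and midbrain (5.56%) and 2 between striatum and midbrain (11.1%), all of them lower than in the midbrain, where 6.52% and 7.45% of all genes were called in either direction. Of genes of at least 1 mean CPM, 7.94% and 10.3% were. The fold change was below 0 for 10 of 18 in the PFC and for 14 of 18 in the striatum, with medians of -0.11 and -0.092. Cyp51 (ENSMUSG00000001467, chr5:4081145-4104746, - strand), the lanosterol demethylase, ran from 13.6 to 34.0 CPM in the midbrain (median 26.2, mean 24.6 ± 6.16, SD, n = 12). It ran from 14.2 to 19.7 CPM in the striatum (median 16.9, mean 16.8 ± 1.68, SD, n = 12) and from 14.6 to 23.0 CPM in the PFC (median 18.95, mean 17.9 ± 2.61, SD, n = 11). The midbrain samples reached far above the others but also held the lowest value, so the ranges overlapped. Cyp51 fell by 0.46 ± 0.11 (log2, SE) from midbrain to PFC (adjusted p = 0.00661, edgeR) and by 0.55 ± 0.11 to striatum (adjusted p = 0.00111).

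Hmgcs1 (ENSMUSG00000093930, chr13:119690379-119708260, + strand) makes HMG-CoA at the entry of the mevalonate pathway. It ran from 25.8 to 42.7 CPM in the midbrain (median 33.5, mean 33.8 ± 5.12, SD, n = 12), from 23.1 to 34.6 CPM in the striatum (median 26.9, mean 27.7 ± 3.28, SD, n = 12) and from 24.2 to 45.7 CPM in the PFC (median 31.1, mean 31.7 ± 5.78, SD, n = 11). The ranges overlapped, and the striatum had the lowest median. Hmgcs1 fell by 0.29 ± 0.084 (log2, SE) from midbrain to striatum (adjusted p = 0.0276, edgeR), in 11 of 12 mice, and its PFC minus midbrain difference was -0.09 ± 0.085. The test of Hmgcs1 over all regions missed the threshold (adjusted p = 0.0537, edgeR), so that it did not pass the study's cut-offs. The striatum call was lost without any 1 of mice 2, 7, 10, 11 or 12, and with the index of other brain cells as a covariate (log2 fold change -0.23, adjusted p = 0.247).

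Sqle, the squalene epoxidase that is a rate-limiting step of the pathway, ran from 1.19 to 6.47 CPM in the midbrain (median 3.97, mean 3.99 ± 1.58, SD, n = 12). It ran from 1.65 to 4.43 in the striatum (median 3.02, mean 2.92 ± 0.813, n = 12) and from 1.09 to 4.27 in the PFC (median 2.40, mean 2.47 ± 1.03, n = 11). The regions overlapped. Its PFC minus midbrain difference was -0.69 ± 0.23 (adjusted p = 0.0654, edgeR), which passed with the mouse as a block (log2 fold change -0.70, adjusted p = 0.0268), and its striatum minus midbrain difference was -0.45 ± 0.22 (adjusted p = 0.254). Sqle was also called between PFC and midbrain by DESeq2 (adjusted p = 0.0380), with the term for mice 1 to 6 against mice 7 to 12 (adjusted p = 0.029) and without any 1 of mice 5, 9, 11 or 12. With the index of other brain cells as a covariate both differences were -0.84, with adjusted p = 0.00943 for the PFC and 0.0433 for the striatum in edgeR. Idi1, the isomerase that activates the isoprene unit, had differences of -0.50 ± 0.19 (adjusted p = 0.140, edgeR) and -0.52 ± 0.19 (adjusted p = 0.0874). DESeq2 called the striatum difference of Idi1 (log2 fold change -0.53, adjusted p = 0.0393). The other 14 enzymes had log2 fold changes between -0.30 (Lss) and 0.20 (Nsdhl, Tm7sf2) for the PFC and between -0.20 (Dhcr7) and 0.14 (Acat2) for the striatum. Ebp, the most abundant of them, stood at 0.00 ± 0.078 and 0.07 ± 0.076.

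**Figure D4:**
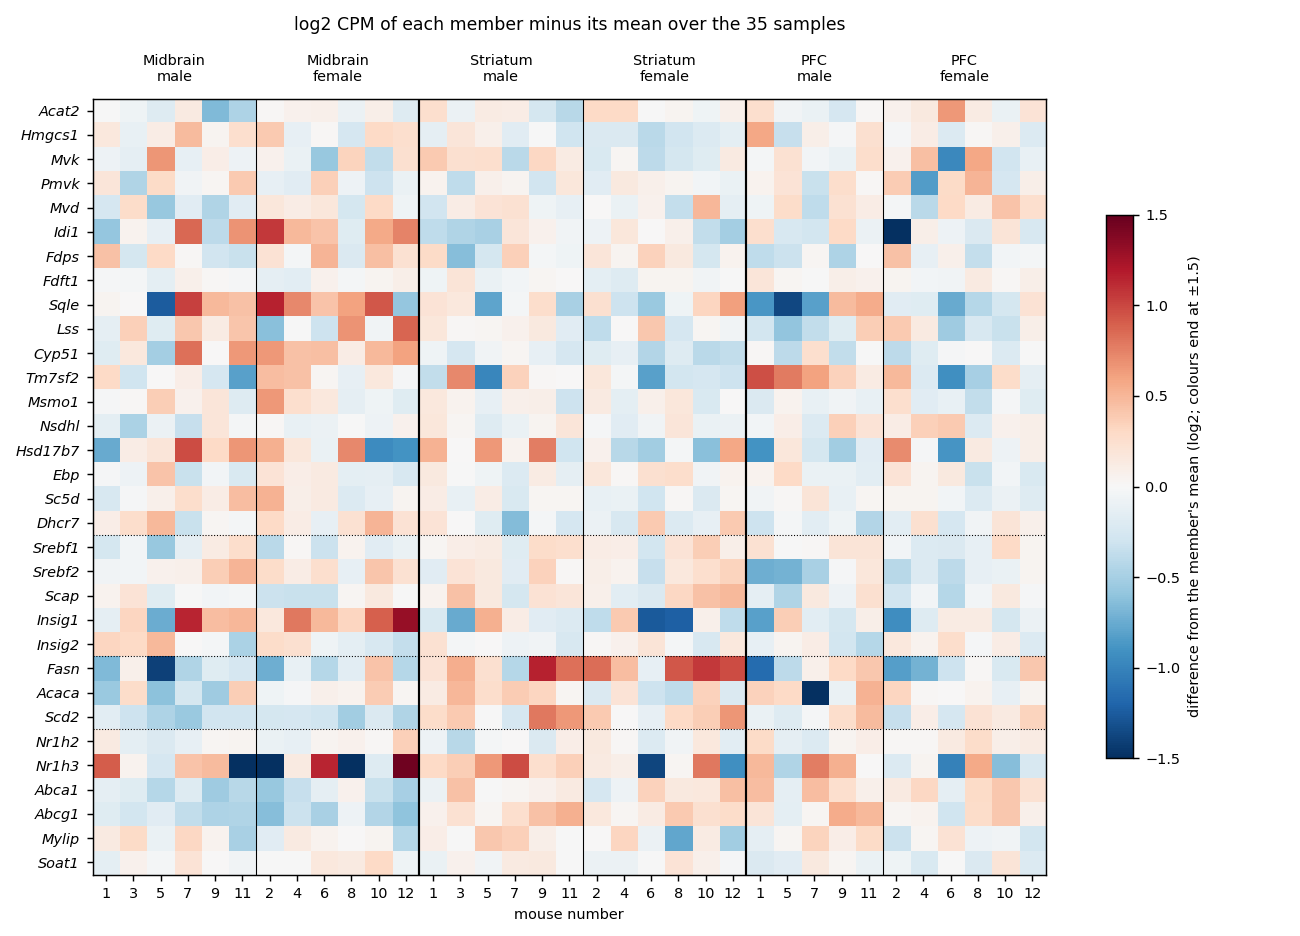
log2 CPM of each member minus its own mean over the 35 samples, with 1 column a sample (mouse numbers below, region and sex above) and 1 row a member by role. Insig1, Cyp51, Sqle and Idi1 are red in most midbrain columns, Scd2, Abca1 and Abcg1 are blue in most of them, and Fasn is red in most striatum columns.

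Striatum and PFC gave no called member at the adjusted threshold, where 0.57% of all genes were called by edgeR. An unadjusted p under 0.05 was found for 5 of the 32 and for 2467 of all 21236 genes. The lowest adjusted p was that of Fasn, with a striatum minus PFC log2 fold change of 0.77 ± 0.19 (adjusted p = 0.0501) and a higher striatum value in 10 of 11 mice. Srebf2 was next at 0.34 ± 0.099 (adjusted p = 0.106), also with 10 of 11 mice. With the mouse as a block both passed, at adjusted p = 0.00827 for Fasn and 0.0121 for Srebf2. The other 3, Scap, Scd2 and Hmgcs1, had log2 fold changes of 0.23 ± 0.092, 0.24 ± 0.10 and -0.20 ± 0.086. DESeq2 called 1 member, Fasn, and the study's cut-offs gave 2, Fasn and Srebf2, where 3.14% of all genes passed them.

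The 2 sexes were compared over all regions, and no member differed at the adjusted threshold in edgeR, where 0.339% of all genes did. The DESeq2 fit gave 0 members as well, with 0.919% of all genes called. Both fits took the samples of a mouse as independent. With counts summed per mouse, edgeR called 0.0424% of all genes, and 0 members had an unadjusted p under 0.05. Over all samples, 2 members had an unadjusted p under 0.05 in edgeR, as did 1704 of 21236 genes. Acat2 had a female minus male difference of 0.18 ± 0.075 (log2, adjusted p = 0.480, edgeR), and Mylip had a female minus male difference of -0.20 ± 0.082 (adjusted p = 0.475). Among the members called between regions the female minus male difference lay between -0.14 (Hmgcs1) and 0.11 (Fasn). Within regions no member was called by edgeR or by DESeq2. Of all genes, edgeR called 0.0377% in the midbrain, 0.033% in the striatum and 0.0659% in the PFC. DESeq2 called 0.0518%, 0.0377% and 0.17%. In the PFC 1 member, Tm7sf2, had an unadjusted p under 0.05, as did 1264 of 21236 genes. In the midbrain and the striatum no member did, where 1172 and 581 genes did. Tm7sf2, a sterol reductase, ran from 2.38 to 4.28 CPM in the 5 male samples and from 1.13 to 3.06 CPM in the 6 female samples of the PFC, a log2 fold change of -0.70 (adjusted p = 0.730, edgeR). It passed the study's cut-offs (an unadjusted p under 0.05 and a fold over 1.2), as did 5.29% of all genes. The interaction of region and sex gave 0 calls in edgeR over all genes (0%) and 0 over the members. DESeq2 gave 0 members too, with 0.00471% of all genes called. Of the members 1, Tm7sf2, had an unadjusted p under 0.05, as did 632 of 21236 genes.

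The samples of mice 1 to 6 and of mice 7 to 12 differed from each other. Every difference from the midbrain called above was also called with a term for these sets in the fit. Fits of either set alone rest on fewer samples. With a term for the 2 sets of mice, 9 of 32 members (28.1%) differed between the sets at an adjusted p under 0.05 in edgeR, where 23.9% of all genes did. Ebp and Insig2 were lower in mice 7 to 12, by log2 fold changes of -0.23 and -0.27, and Fasn was higher by 0.53. The numbers come from the sample titles, no source used here says what set the 2 groups of mice apart, and a date or batch cannot be named. In mice 1 to 6 alone, 1 member was called between PFC and midbrain (Srebf2) and 2 between striatum and midbrain (Scd2 and Abcg1). Of all genes, 1.82% and 1.02% were called in that set. In mice 7 to 12 alone, 5 and 7 members were called, and 4.34% and 5.69% of all genes. The PFC minus midbrain difference of Scd2 was 0.14 in the first set and 0.62 in the second, and that of Abcg1 was 0.32 and 0.70. For Insig1 it was -0.42 and -0.91, and for striatum minus midbrain -0.36 and -1.07, while for Srebf2 the PFC difference was -0.61 in the first set and -0.34 in the second. The difference between the sets in these contrasts was not tested.

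**Figure D5:**
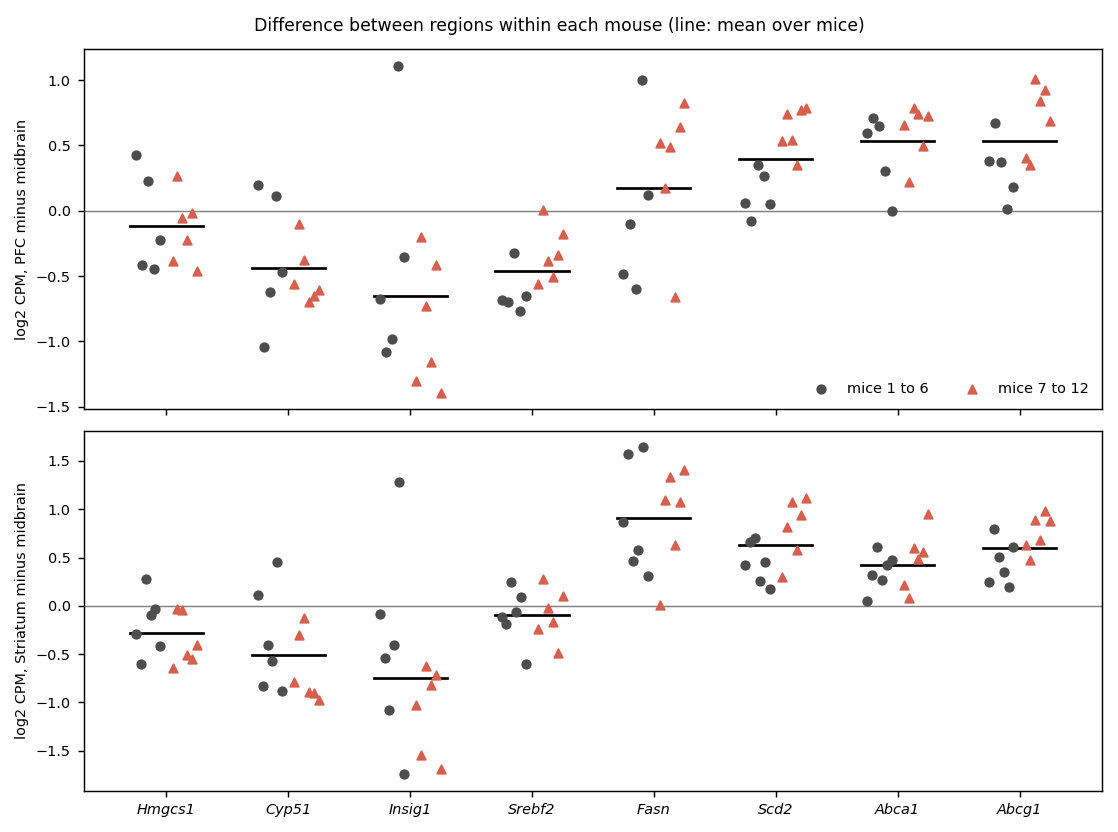
Difference in log2 CPM between PFC and midbrain (top, 11 mice) and between striatum and midbrain (bottom, 12 mice) within each mouse, for the 8 called members, with dots for mice 1 to 6, triangles for mice 7 to 12 and a line at the mean. For striatum minus midbrain every mouse is above 0 for Fasn, Scd2, Abca1 and Abcg1, and the Insig1 point above 0 in each panel is mouse 5.

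Other genes of the same pathways, listed by role, were read in the same fits. Of the 27 reported here, 8 (29.6%) differed across regions, as did 8.89% of all genes. These genes were also chosen with earlier results of these data known, so their shares are a description. Between PFC and midbrain 8 were called, 2 higher and 6 lower in the PFC, against 2.88% of all genes higher and 3.64% lower. Between striatum and midbrain 6 were called, 3 higher and 3 lower in the striatum, against 4.18% and 3.27% of all genes. All of the called genes belonged to uptake and handling or to fatty acid and phospholipid synthesis.

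Among 12 genes of uptake and handling, 6 fell and 1 rose from midbrain to PFC, where 3.64% of all genes fell and 2.88% rose. Ch25h, which makes 25-hydroxycholesterol, averaged 2.76 CPM in the midbrain, 0.780 in the striatum and 0.645 in the PFC, and its log2 fold changes were -2.33 ± 0.53 (adjusted p = 0.0035, edgeR) and -2.02 ± 0.51 (adjusted p = 0.00948). Stard4, a sterol transfer protein and SREBP-2 target, averaged 2.15, 1.03 and 0.902 CPM, with log2 fold changes of -1.30 ± 0.34 and -1.06 ± 0.33.

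Apoc1 and Apoe, neighbouring genes of lipoprotein components, also fell from midbrain to PFC. Apoc1 was low in every region, with means of 1.36, 0.201 and 0.0760 CPM, the last at about the floor of 3 counts, and its log2 fold changes were -4.24 ± 0.76 and -2.83 ± 0.67. Apoe ran from 201 to 2257 CPM in the midbrain and from 81.7 to 529 CPM in the PFC, and fell by 1.15 ± 0.36 (log2, SE, adjusted p = 0.0445, edgeR), although its test over all regions missed the threshold (adjusted p = 0.0765). The highest Apoe sample was the midbrain of mouse 6, which also had the highest border macrophage sum of the midbrain samples, 25.5 CPM against 1.81 to 14.0 CPM in the others, and the part of that in the result was not tested. Nceh1, a cholesteryl ester hydrolase, and Cyp27a1, a sterol hydroxylase, fell to the PFC by 0.65 ± 0.15 and 0.37 ± 0.10. Gramd1b, which moves sterol between membranes, rose by 0.47 ± 0.14 (adjusted p = 0.032), and its test over all regions missed the threshold (adjusted p = 0.0644).

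Of 10 genes of fatty acid and phospholipid synthesis, 1 was called between PFC and midbrain and 2 between striatum and midbrain, all higher than in the midbrain, where 6.52% and 7.45% of all genes were called. The log2 fold change was above 0 for 4 of the 10 in the PFC and for 9 in the striatum. Fads1, a desaturase of polyunsaturated fatty acids, rose by 0.25 ± 0.074 to the PFC (adjusted p = 0.0343, edgeR) and by 0.34 ± 0.072 to the striatum (adjusted p = 0.00247). Lpcat3, which places such fatty acids in phospholipids and is a known LXR target, rose to the striatum by 0.26 ± 0.052 (adjusted p = 0.00139), from a mean of 207 CPM in the midbrain to 248. Pltp, a phospholipid transfer protein of the uptake and handling list, rose to the striatum by 0.37 ± 0.085 (adjusted p = 0.00486). No gene of these lists was called between striatum and PFC, where the lowest adjusted p was 0.153 for Pltp, or between the sexes (lowest 0.389). In these tests 5 and 2 genes had an unadjusted p under 0.05 in edgeR, as did 2467 and 1704 of all 21236 genes.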

How the data were processed

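RNA of tdTomato-positive cells was amplified with Smart-Seq HT (15 cycles), made into Nextera XT libraries, which mark neither strand nor molecule, and sequenced as read pairs of 50 bases. The authors checked reads with FastQC 0.11.9, trimmed them with Trimmomatic 0.38, aligned them with HISAT2 2.2.0 to the Ensembl GRCm38 genome and deposited 1 table of raw counts per gene. The counting tool, its annotation and its treatment of reads that match several genes are not given in the sources used here. The authors' methods kept genes that reached 1 CPM in at least 1 group of sex and region.

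From these counts, region and sex were fitted as terms over all 35 samples and 21236 genes, by the robust quasi-likelihood method of edgeR 4.0.16 under R 4.3.3, after TMM scaling. Sex within a region and the interaction came from a fit of the 6 groups. A call is a Benjamini-Hochberg adjusted p under 0.05 over all genes, and p-values measure the spread between these samples. Levels are TMM-scaled CPM. Symbols (21103 of 21236 identifiers), positions and exon lengths come from GENCODE M21 (GRCm38), and promoters from RefSeq. Members and lists were chosen with earlier results of these data known. Some further genes of these pathways are not reported here, and the counts over the other pathway genes leave them out. Values by region are given for every called member and for others that their role makes of interest, and all members are counted. The index of ex vivo activation was added after the data were seen. The other alternatives were DESeq2 1.42.0 or its size factors, filterByExpr, the study's cut-offs (a fold of 1.2 at an unadjusted p of 0.05, with the adjusted p over regions for pairs), the mouse as a block, an index of other brain cells, a term for mice 1 to 6 against 7 to 12 or either set alone, counts summed per mouse for sex, and leaving out each mouse. The scripts were tested on simulated data.

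The titles number the samples, and those with the same number were taken to come from the same animal and so to be paired. Over 34 pairs of samples of the same mouse the deviations from the group means had a mean correlation of 0.225 (-0.128 to 0.435), against -0.0431 over 170 pairs of different mice of the same sex and different regions. The column of 1 sample is named for the PFC while its label says striatum, mouse 3. The label was followed, and a fit without it is among the alternatives. Total counts of 37680501 to 54131421 set the floor of 3 counts, which covers counting error only.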

Additional observations from a re-analysis of the deposited data

Results flagged for a closer look

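Each member was checked in the 6 groups of region and sex for a highest or lowest sample that stood apart from the others of its group (Dixon's ratio). Of 192 groups 7 did, and chance alone gives about 1 in 20. In all 7 it was the highest sample, and none was in a member called between regions.

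In the midbrain of male mouse 5, Mvk, the mevalonate kinase, stood at 10.66 CPM, where the next sample had 7.22, and Ebp stood at 117 CPM, where the next had 85.64. Female mouse 6 had 14.65 CPM of Pmvk in the midbrain, where the next had 10.81, and 20.5 CPM of Acat2 in the PFC, where the next had 15.04. For Acaca the samples were the midbrain of female mouse 10, at 2.506 CPM above 2.022, and the PFC of female mouse 2, at 2.402 CPM above 1.991. For Nr1h2 it was the midbrain of female mouse 12, at 79.98 CPM above 64.97.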

How the results depend on the processing

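No result reversed under any alternative, and of the alternative counts of members 146 stayed within 1.5 times the reported count and 11 did not. In mice 1 to 6 alone, 4 members differed across regions, 1 between PFC and midbrain and 2 between striatum and midbrain, a fit that rests on fewer samples. The shares of all genes called there were 2.41%, 1.82% and 1.02%. Striatum minus PFC, with 0 members, gave 2 with the study's cut-offs, 1 with DESeq2, 1 with filterByExpr, 2 with the mouse as a block and 2 with the term for the sets of mice. The shares of all genes were 3.14%, 1.61%, 0.719%, 2.89% and 2.27%. Leaving out 1 mouse gave 0 to 1, with Fasn called without mouse 7 and Srebf2 without mouse 11. Sex within regions, with 0, gave 1 with the study's cut-offs, Tm7sf2 in the PFC. With a mouse left out, the counts ranged from 7 to 9 across regions, from 5 to 7 for PFC minus midbrain and from 5 to 7 for striatum minus midbrain. With the replicate block the counts were 10 across regions, 7 for PFC minus midbrain and 9 for striatum minus midbrain. Of all genes, 14%, 8.06% and 11.7% were called with it. The block added Sqle to the first pair, Srebf1 and Scap to the second, and Fasn and Srebf2 between striatum and PFC. It changed no other call between 2 regions. Of the values of single genes, 273 kept their call and 26 lost it. Abcg1 (0.45 to 0.74) and Scd2 (0.38 to 0.84) were called between striatum and midbrain in all 23 alternatives. Genes with low and widely spread values, such as Nr1h3, could show large differences only.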
